A study of Mus musculus with 13 samples.

Results

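Blastocysts labelled as starved were compared with blastocysts of mothers on a normal diet across all genes. The 4 libraries were chosen by their labels from 13 in the series. Both starvation libraries come from embryonic day 5.5 and both E4.5 libraries from embryonic day 4.5, all from whole wild-type blastocysts of the mixed C57BL/6 and DBA2J background B6D2F1. The labels say "starvation" and give neither its length nor its severity. Age and starvation changed together between the groups, so they cannot be told apart. Of 31528 genes in the deposited table, 21808 had enough counts to be tested. Day 5.5 blastocysts of ovariectomised mothers (OVX, n = 2), and day 5.5 blastocysts in KSOM, an embryo culture medium, stripped of protein and carbohydrate (depleted KSOM, n = 2), are used below only where they differed from starvation. Those libraries are wild-type and of the same background too.

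In embryonic diapause the blastocyst stays unattached in the uterus, and growth and cell division slow or pause until conditions improve. Low activity of the growth kinase complex mTORC1 is known to favour this state. mTORC1 works at the surface of the lysosome, where it senses amino acids with the help of the proton pump V-ATPase, and when it is low, factors of the TFEB family enter the nucleus and switch on lysosomal genes.

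The 4 libraries held 48834738 to 71353685 counts, and levels are given as CPM, counts scaled to library size with trimmed means. Mitochondrially encoded transcripts took 5.06% and 6.69% of counts in E4.5 and 5.1% and 7.4% in starvation. The 10 trophectoderm markers, with sums of 6980 to 14700 CPM of library totals, and the 10 epiblast and inner cell mass markers, with 5410 to 16100 CPM, had no member at 0 in any of the 4 libraries. Several markers of tissues outside the embryo were highest in starvation replicate 2. The stromal gene Dcn was at 25.2 CPM there, and the oviduct gene Ovgp1 at 14.3, the uterine gene Calb1 at 13.7 and the neutrophil gene S100a9 at 5.82 CPM, while none of these 4 passed 1 CPM in the other 3 libraries. Other markers were highest elsewhere. In starvation replicates 1 and 2 the stromal gene Hoxa10 was at 7.32 and 0 CPM, the oviduct gene Tppp3 at 5.04 and 0.643 CPM and the ovarian gene Cyp11a1 at 8.71 and 0 CPM. The stromal gene Vim was highest in E4.5 replicate 1, at 19.1 CPM. Marker sums in CPM of library totals, in the order of E4.5 replicates 1 and 2 and starvation replicates 1 and 2 were 30.2, 9.87, 11 and 39.9 CPM for uterine stroma and decidua, 5.12, 3.03, 6.82 and 20.5 CPM for oviduct, and 73.1, 126, 36.8 and 151 CPM for neutrophils, mostly Csf3r. Cumulus and ovary markers summed to 2.46, 4.05, 14.1 and 2.51 CPM in the same order. The part of these transcripts in the results was not tested. The 10 leukocyte markers summed to 20.7 to 38.5 CPM in E4.5, mostly from Laptm5, and to 3.22 and 5.02 CPM in starvation. Of 10 uterine epithelium markers, 3 to 6 were at 0 in each library, and most of that list's sum was Epcam, which the blastocyst expresses. The 10 skeletal muscle markers summed to 131 to 477 CPM, mostly Mylpf, with 5 to 7 of them at 0. The libraries differed in sex-linked transcripts. Xist, the RNA that coats the inactive X chromosome, was at 179 and 5.75 CPM in E4.5 replicates 1 and 2 and at 190 and 128 CPM in starvation. The Y-linked gene Eif2s3y was at 0.0797 and 43.3 CPM in E4.5 and at 0 and 0.126 CPM in starvation. E4.5 replicate 2 was therefore the only one of the 4 with both low Xist and clear Y-linked counts. The part of this difference in the results was not tested, but list counts are also given without that library. Of the genes called below 17 were X-linked, 3.81% of those called higher and 2.59% of those called lower, against 3.6% of all genes tested. Most of these 17 calls were lost without E4.5 replicate 2, as were most calls of any chromosome.

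In starvation 367 genes were higher and 116 lower than in E4.5 at an adjusted p under 0.05 (edgeR quasi-likelihood test). That is 2.21% of the genes tested, with 1.68% higher and 0.532% lower. In all 483 called genes the groups did not overlap, so separate groups in a called gene add nothing to its call. The spread between replicates was large, with a biological coefficient of variation of 0.896 in 1 fit over all groups. The balance of directions depended on the scaling. With library totals in place of trimmed means, 230 genes were called, 49.1% of them higher, against 76% on the main scale, and the centre of the log2 fold changes (their median over the tested genes) moved from 0 to −0.17. With limma on log2 of the FPKM plus 1, 24.7% of 1799 calls were higher. Leaving out E4.5 replicate 1 left 55 calls and leaving out E4.5 replicate 2 left 119, while 1105 genes were called when starvation replicate 1 was dropped and 388 when starvation replicate 2 was. A fit of the 4 libraries alone, which estimates the spread from these groups only, called 0 genes, with 2942 at an unadjusted p under 0.05, and DESeq2 called 2256 over all libraries.

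**Figure D1:**
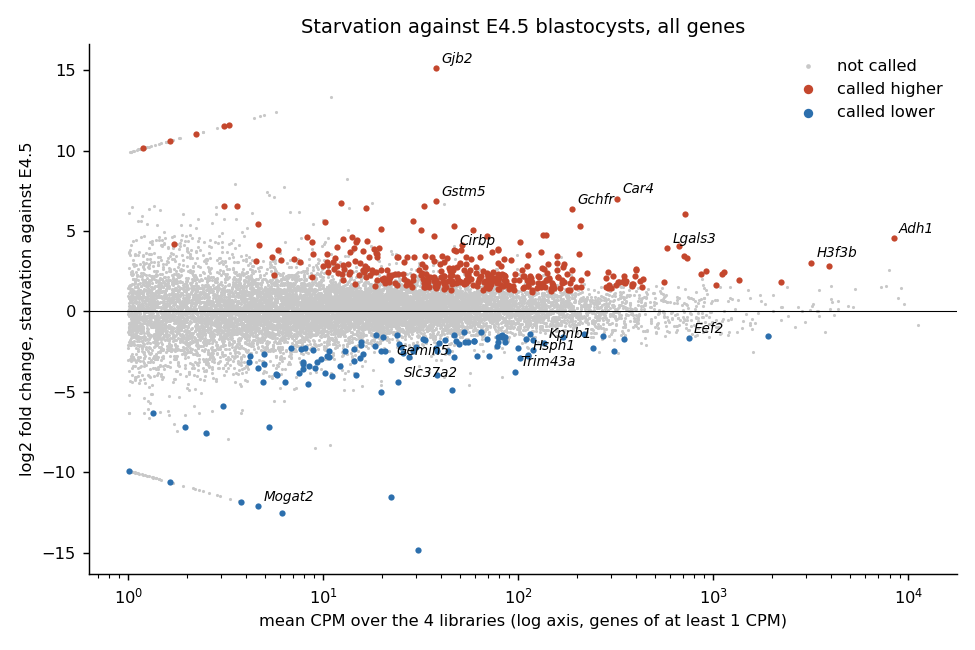
Log2 fold change of starvation against E4.5 (vertical axis) by mean CPM over the 4 libraries (horizontal log axis), 1 point per gene of at least 1 CPM. Red points are genes called higher and blue points genes called lower. The lines of points beyond 9 in either direction are genes with no counts in 1 group, whose fitted fold changes give no measure of size. Called genes of high level, such as Adh1 and H3f3b, lie mostly above 0.

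A set of 34 genes, 19 higher and 15 lower, was called in each of the 4 fits that left out 1 library. Gchfr and Car4 were among the steepest of these. Gchfr encodes the regulator that lets tetrahydrobiopterin feed back on its own synthesis (ENSMUSG00000046814, protein coding, chr2:119167773-119172390 of GRCm38). It was at 3.75 and 5.36 CPM in E4.5 and at 298 and 450 CPM in starvation, 82.1-fold higher (log2 fold change 6.36 ± 0.43 SE, adjusted p = 5.7e-05). Car4, a membrane-bound carbonic anhydrase (chr11:84957786-84966044), stood at 7.08 and 2.83 CPM in E4.5 and at 334 and 938 CPM in starvation (7.0 ± 0.80, adjusted p = 0.0029). For both genes the lowest starvation library lay far above the highest E4.5 library. Among genes that fell, Slc37a2, a sugar phosphate transporter of the endoplasmic reticulum, was at 45.6 and 47 CPM in E4.5 and at 1.64 and 2.7 CPM in starvation (−4.41 ± 0.69, adjusted p = 0.0099).

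Other genes of the stable set serve varied functions. Lgals3, a galactose-binding lectin, went from 79.9 and 62.3 CPM to 1241 and 926 CPM (3.93 ± 0.37, adjusted p = 0.0008). Slc39a2, a zinc importer, stood at 2.98 and 16.4 CPM in E4.5 and at 248 and 286 CPM in starvation (4.78 ± 0.72, adjusted p = 0.0099). Abat, which breaks down the amino acid GABA, went from 3.14 and 1.54 CPM to 54.9 and 128 CPM (5.29 ± 0.67, adjusted p = 0.0043). The groups were separate in all 3 of these genes, as in every called gene. Soat1, which makes cholesterol esters for storage, rose 10.7-fold, from 24.6 and 29.4 CPM to 219 and 361 CPM. H3f3b, a gene for the replication-independent histone H3.3, rose 8.26-fold to 6100 and 5236 CPM. Gstm5, a glutathione transferase, rose 116-fold to 21.8 and 128 CPM, and its 2 starvation libraries differed from each other more than those of H3f3b did. Hsd3b7, which acts in bile acid synthesis, had no counts in either E4.5 library and 5.41 and 1.15 CPM in starvation, at least 78.7-fold higher against a floor of 3 counts per library.

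The stable genes that fell had varied roles. Hsph1, a large heat shock protein that acts with HSP70 (chr5:149614287-149636376), was at 203 and 184 CPM in E4.5 and at 38.1 and 21.1 CPM in starvation (−2.71 ± 0.34, adjusted p = 0.0045). Gemin5, a part of the complex that assembles splicing particles, was at 38.8 and 40.1 CPM and fell to 5.05 and 4.64 CPM (−3.02 ± 0.37, adjusted p = 0.0034). Mgme1, a nuclease that maintains mitochondrial DNA, went from 21.3 and 23.1 CPM to 2.25 and 2.03 CPM (−3.37 ± 0.48, adjusted p = 0.0081). Replicates of these genes lay close together in E4.5. Mogat2, which joins fatty acids to monoacylglycerol, had 12.9 and 5.52 CPM in E4.5 and no counts in either starvation library, at least 240-fold lower against the floor. Another 5 of the 15 are predicted models or pseudogenes, such as Rpl30-ps1, whose reads may come from a near-identical parent gene, so they are uncertain.

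**Figure D2:**
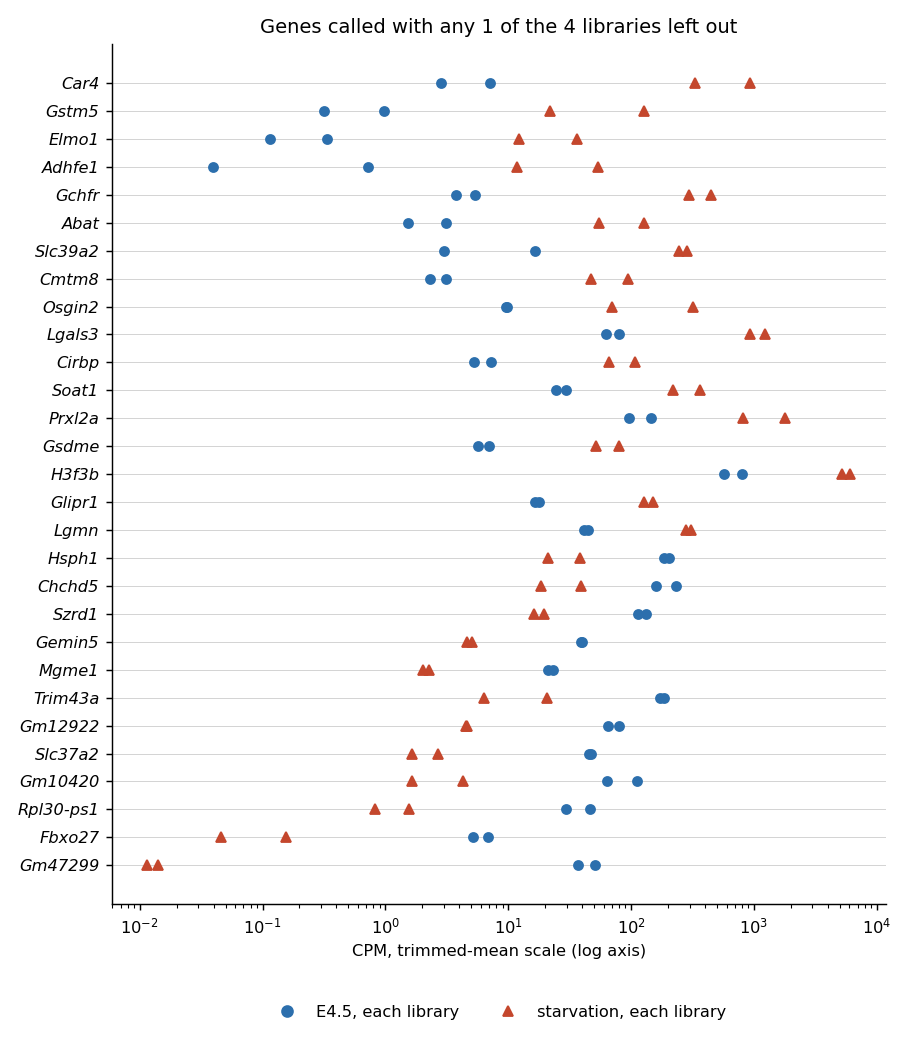
Level in CPM (log axis) of 29 genes called with any 1 of the 4 libraries left out, in each E4.5 library (blue circles) and each starvation library (red triangles). Genes with a library at 0 CPM are not drawn. Circles and triangles do not overlap in any row, as in every called gene, and the gap is widest in the rows of Gm47299, Car4 and Gchfr.

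Not all large changes were as even between the starvation replicates. Nupr1, a small stress-induced nuclear protein, was at 13.6 and 29.3 CPM in E4.5 but at 124 and 2706 CPM in starvation (6.04 ± 1.08, adjusted p = 0.016), and the p rose to 0.07 when E4.5 replicate 1 was left out. Of the 367 genes called higher, 261 were higher in starvation replicate 2 than in replicate 1, and 45 differed more than 3-fold between them. Among all 21808 genes tested, 10339 were higher in starvation replicate 2 and 5271 differed more than 3-fold. The test favours genes with little spread, and the genes called higher had a median level of 53.8 CPM, against 2.42 CPM over all tested. These counts therefore cannot tell whether the called genes are more even. Adh1, an alcohol and retinol dehydrogenase chosen for mention after its values were seen, was at 533 and 851 CPM in E4.5 and at 15670 and 16600 CPM in starvation (4.54 ± 0.73, adjusted p = 0.012), with an adjusted p of 0.055 without E4.5 replicate 1. Gjb2, which encodes connexin 26, had no counts in E4.5 and 4.02 and 147 CPM in starvation, with an adjusted p of 0.043 that became 0.1, 0.076 or 0.051 when E4.5 replicate 1, E4.5 replicate 2 or starvation replicate 2 was dropped.

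Some lysosomal genes were called higher and 0 were called lower. Lysosomal enzymes digest proteins, lipids and sugars taken in or recycled by the cell. Of 40 enzymes tested, 12 were called higher and 0 lower, where 1.68% of all genes were called higher. The median log2 fold change was 1.03, against 0 over all genes, and 9 of the 40 lay below 0. In 21 both starvation libraries lay above both E4.5 libraries, as in 19.8% of all genes, and in 2 below, as in 24.7%. Gm2a, an activator protein that lifts gangliosides out of membranes for digestion, was at 659 and 1242 CPM and rose to 9023 and 4734 CPM (2.85 ± 0.49, adjusted p = 0.013). Lgmn, the protease legumain, rose from 41.2 and 44.5 CPM to 310 and 279 CPM (2.78 ± 0.35, adjusted p = 0.0041). In both of these genes both starvation libraries stood above both E4.5 libraries, as in every gene called higher. The proteases Tpp1, Ctsa, Ctsl and Dpp7 and the sugar-removing enzymes Fuca1 and Neu1 were among the others that rose. Ctsd (log2 fold change −0.05) and Psap (−0.33), the members of highest CPM among those not called, did not pass the test (adjusted p = 1.0 and 0.63). Lgmn kept its call with any library left out. The count of 12 became 4 and 3 when E4.5 replicate 1 or 2 was left out, and 11 and 9 when starvation replicate 1 or 2 was. With library totals as scaling the median was 0.76.

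V-ATPase subunits acidify the lysosome. Of 17 subunits and accessory proteins, 6 rose, against 1.68% of all genes, and 0 fell. Their median log2 fold change was 0.65. Atp6ap2, an accessory protein coded on the X chromosome, was at 101 and 75.8 CPM in E4.5 and at 539 and 441 CPM in starvation (2.47 ± 0.46, adjusted p = 0.018). Atp6v0b, a subunit of the membrane rotor, stood at 152 and 153 CPM in E4.5 and at 605 and 460 CPM in starvation (1.80 ± 0.32, adjusted p = 0.016). In 13 of the 17 both starvation libraries lay above both E4.5 libraries, as in 19.8% of all genes tested, and in 0 both lay below, as in 24.7%. None of the 17 was called when either E4.5 library was left out, 7 were when starvation replicate 1 was and 2 when starvation replicate 2 was. With library totals the median was 0.41. Of 24 lysosomal membrane and trafficking genes, 2 rose (Npc2, a cholesterol carrier, and Lamp2, a membrane glycoprotein) and 0 fell, a count that became 0 when either E4.5 library was left out and 4 when starvation replicate 1 was.

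**Figure D3:**
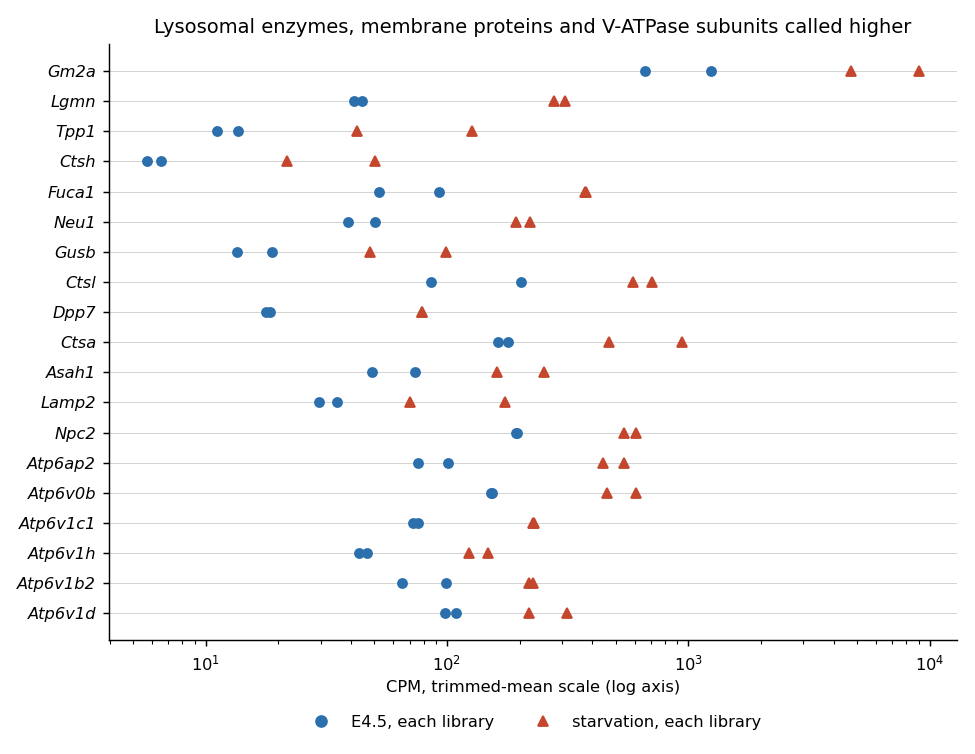
Level in CPM (log axis) of 19 lysosomal enzymes, lysosomal membrane genes and V-ATPase subunits called higher, in each E4.5 library (blue circles) and each starvation library (red triangles). Every triangle lies to the right of both circles of its row, as holds for every gene called higher. The rows run from Gm2a, at 9023 and 4734 CPM in starvation, to Atp6v1d, at 218 and 314 CPM.

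TFEB-family factors are known to bind the letters CACGTG, so these were searched on both strands of the 250 bases before each start site in the RefSeq promoters of GRCm38.p6. The letters read the same on both strands, and a gene counted if any of its listed starts held them. Promoters were found for 62 of the 81 genes of the 3 lists, and 20 of these 62 (32.3%) held CACGTG. The share was 6.86% of all 27025 genes with a promoter and 9.21% of the 13340 tested genes that have one. Among the genes of the 3 lists called higher, it was held by 5 of the 14 with a promoter, and among all genes called higher by 13.6% of the 280 with a promoter and among all genes called lower by 15.9% of the 69 with one. The match is a description of the letters and no test of binding. A pair of examples was picked because they hold CACGTG, have a single listed start and rose in level. Other genes that rose and have a single listed start, such as Gm2a and Tpp1, held none. The pair is shown 5′ to 3′ up to the last base before the start, with CACGTG in capitals. Atp6v0b (chr4:117887330-117887579, minus strand) holds it 36 and 18 bases before the start, and Dpp7 (chr2:25356333-25356582, minus strand) holds it 73 bases before.
Atp6v0b: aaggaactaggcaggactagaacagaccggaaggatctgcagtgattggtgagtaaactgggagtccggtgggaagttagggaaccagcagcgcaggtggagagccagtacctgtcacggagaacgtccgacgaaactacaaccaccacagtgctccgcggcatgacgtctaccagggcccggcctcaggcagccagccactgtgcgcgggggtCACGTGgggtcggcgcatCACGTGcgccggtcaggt
Dpp7: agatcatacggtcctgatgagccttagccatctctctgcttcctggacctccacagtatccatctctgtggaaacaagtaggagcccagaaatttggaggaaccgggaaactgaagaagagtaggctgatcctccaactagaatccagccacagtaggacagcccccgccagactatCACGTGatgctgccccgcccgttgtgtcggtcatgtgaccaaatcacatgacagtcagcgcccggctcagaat

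Few regulators of mTORC1 were called. Of 53 genes, 3 rose and 1 fell, beside 1.68% higher and 0.532% lower of all genes, with a median of 0.23. Rraga and Rragc encode Rag GTPases that bring mTORC1 to the lysosome, and Fnip2 a partner of folliculin. Rragc went from 13.8 and 21.2 CPM to 71.1 and 114 CPM (2.40 ± 0.44, adjusted p = 0.017), and Rraga from 13.1 and 12.9 CPM to 46 and 39.2 CPM (1.71 ± 0.40, adjusted p = 0.048). The list had 1 higher call when E4.5 replicate 1 was dropped, 0 when E4.5 replicate 2 was, 6 when starvation replicate 1 was and 1 when starvation replicate 2 was. Mtor itself stood at 20.9 and 24 CPM in E4.5 and at 21.8 and 22.6 CPM in starvation, and Tfeb at 32.1 and 32.9 CPM and at 25 and 14.9 CPM, neither past the test (adjusted p = 1.0 and 0.7). Ddit4, a stress-induced inhibitor of mTORC1, was called lower at very low levels, from 0.585 and 1.96 CPM to no counts, and in no fit with a library left out. Of 38 genes of the autophagy machinery 2 rose (Optn and Atg4b) and 1 fell (Atg2a), and when E4.5 replicate 1 was left out 0 were called. With so few calls beside the 1.68% higher and 0.532% lower of all genes, nothing is read from this list or from the mTORC1 list.

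A minority of the enzymes that break down amino acids and fat rose. Of 29 genes for ketone, GABA and branched-chain amino acid breakdown 7 rose and 0 fell, with a median of 0.81. The shares of all genes, to be set beside this list and those below, were 1.68% higher and 0.532% lower. Bcat2, Bckdhb, Hibadh, Aldh6a1 and Mccc2 act on branched-chain amino acids or their products, and Acat1 on ketone bodies and isoleucine. Bcat2 was at 31.9 and 28.4 CPM in E4.5 and at 143 and 92.2 CPM in starvation (1.96 ± 0.42, adjusted p = 0.032). Of these 7, only Abat was called with any library left out, and the count became 1 when either E4.5 library was dropped, 6 when starvation replicate 1 was and 2 when starvation replicate 2 was. Of 32 genes for fatty acid oxidation 3 rose (Acadl, Acadm and Echs1) and 0 fell, with a median of 0.17 (0 with library totals), a count that was 0 when either E4.5 library was dropped and 1 when starvation replicate 2 was. Acadl, the long-chain acyl-CoA dehydrogenase, was at 152 and 149 CPM and rose to 511 and 614 CPM (1.9 ± 0.35, adjusted p = 0.018). Of 30 metal transport genes 4 rose, namely Slc39a2, the zinc importer Slc39a1, the copper importer Slc31a1 and the metal-sensing factor Mtf1. That count was 1 and 2 when E4.5 replicate 1 or 2 was dropped.

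Calls among genes for making proteins and dividing were few in number. The shares to be set beside them were 1.68% of all genes called higher and 0.532% lower. Of 81 cytosolic ribosomal protein genes 0 were called, 27 were lower at an unadjusted p under 0.05 in edgeR, and 11 were lower in DESeq2. Of all 21808 genes tested, 3658 had an unadjusted p under 0.05 in edgeR, in either direction. DESeq2 called 1276 of them higher and 980 lower. The median of the 81 was −0.82, 2 of them lay above 0, and in 67 both starvation libraries lay below both E4.5 libraries, against 24.7% of all genes. That median was −0.57 with an offset for transcript length and −1.08 with library totals as scaling. It ranged from −1.22 to −0.55 over the fits with a library left out. Limma on log2 of the FPKM plus 1 called 28 of the 81 lower, and 1355 of all 21808 genes. Of 37 translation initiation and elongation genes 0 rose and 1 fell, with a median of −0.1. That gene, Eef2, an elongation factor, fell from 1193 and 1084 CPM to 398 and 312 CPM (−1.68 ± 0.33, adjusted p = 0.022), with an adjusted p of 0.14 or 0.077 when E4.5 replicate 1 or 2 was dropped and of 0.089 when starvation replicate 2 was. Of 60 DNA replication genes 3 fell, the polymerase subunit Pold1 and the helicase subunits Mcm3 and Mcm7, and the count became 0 or 1 when E4.5 replicate 1 or 2 was dropped, 12 when starvation replicate 1 was and 0 when starvation replicate 2 was. Of 52 mitosis genes 0 were called (8 lower and 1 higher at an unadjusted p under 0.05, 3 lower and 1 higher in DESeq2). Their median was −0.83, and it ranged from −1.87 to −0.28 over the fits with a library left out.

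Chaperones and the import of proteins into the nucleus moved in mixed directions. Of 42 heat shock and chaperone genes 2 rose and 3 fell, beside 1.68% higher and 0.532% lower of all genes. Hsp90ab1, a cytosolic chaperone, fell from 2888 and 2751 CPM to 1183 and 793 CPM (−1.51 ± 0.34, adjusted p = 0.039), and Hsph1 and Dnaja1 fell too. The list had 1 lower call when either E4.5 library was dropped and 6 when starvation replicate 1 was. Of the 30 genes of the unfolded protein response, the sensor kinase Eif2ak3, Selenos and Dnajb9 rose, and the ER chaperones Calr, Hsp90b1 and the secreted factor Manf fell. That list had 1 higher and 0 lower calls when E4.5 replicate 1 was dropped, and 1 higher and 1 lower when E4.5 replicate 2 was. Kpnb1, importin beta, was at 200 and 229 CPM in E4.5 and at 55 and 54.7 CPM in starvation (−1.97 ± 0.31, adjusted p = 0.0099). Ipo7, another importin, and Rangap1, which switches off the transport GTPase Ran, fell with it, while the pore protein Nup98 rose. Kpnb1 had adjusted p = 0.057 or 0.067 when E4.5 replicate 1 or 2 was dropped, and in both cases none of the 49 nuclear pore and import genes was called.

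Some lineage genes were called, to be set beside 1.68% higher and 0.532% lower of all genes. Of 44 trophectoderm genes 5 rose (Lgals3, Tspan8, Emp2, Fgfr2 and the glucose transporter Slc2a3) and 1 fell (Itgav, an integrin subunit), and the count of 5 became 1 or 2 when E4.5 replicate 1 or 2 was dropped and 3 when starvation replicate 2 was. Cdx2, the trophectoderm regulator, was at 59 and 68.1 CPM in E4.5 and at 35 and 59.3 CPM in starvation (adjusted p = 0.61). Of 32 primitive endoderm genes 2 rose (Fgfr2 and Ttr) and 1 fell (Lrp2), and 0 were called when either E4.5 library was dropped. Of 32 naive pluripotency genes 0 were called, with 4 higher and 4 lower at an unadjusted p under 0.05 in edgeR and 4 higher and 3 lower in DESeq2. Over all 21808 genes tested, these counts in either direction were 3658 and 2256. Pou5f1 was at 111 and 82.5 CPM in E4.5 and at 40.8 and 31.3 CPM in starvation (adjusted p = 0.088), and Nanog at 44.4 and 37.9 CPM and at 10.6 and 40.2 CPM (adjusted p = 0.72). The groups did not overlap in Pou5f1 and overlapped in Nanog. Lifr, a receptor for the cytokine LIF, which is tied to diapause and implantation, rose from 3.97 and 2.83 CPM to 8.37 and 46.4 CPM (3.01 ± 0.71, adjusted p = 0.049). The p was 0.18 with E4.5 replicate 1 left out, 0.21 with E4.5 replicate 2 left out and 0.37 with starvation replicate 2 left out. In bulk libraries, fewer cells of a type and less RNA per cell cannot be told apart.

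**Figure D4:**
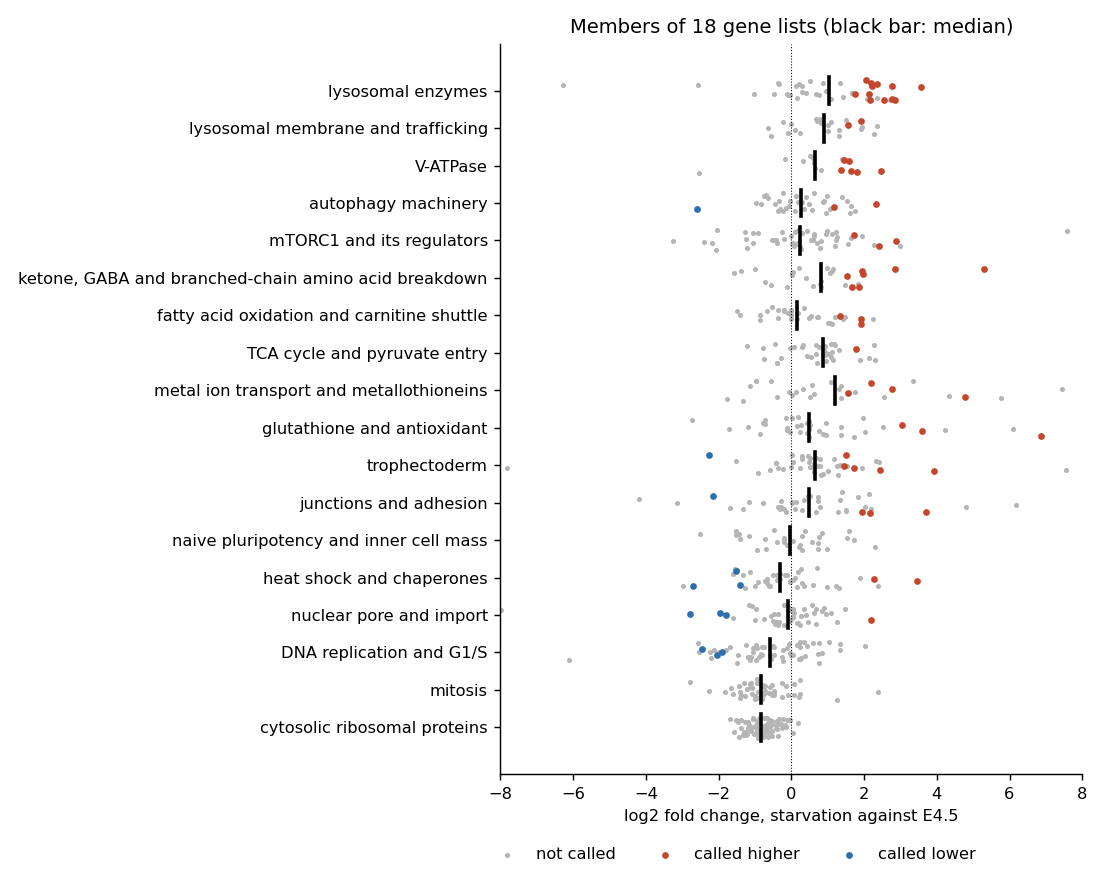
Log2 fold change of starvation against E4.5 for the members of 18 gene lists, 1 point per gene, with genes called higher in red, called lower in blue and the median of each list as a black bar. The 5 members beyond 8 in either direction are not drawn. The lysosomal enzymes have a median of 1.03 and the cytosolic ribosomal proteins, with 0 called, a median of −0.82.

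Cirbp and Rbm3, RNA-binding proteins known to be induced by mild cold, were singled out after their values were seen. Cirbp (ENSMUSG00000045193, chr10:80165985-80171655) was at 7.19 and 5.29 CPM in E4.5 and at 109 and 65.8 CPM in starvation (3.80 ± 0.52, adjusted p = 0.0066), and was called with any of the 4 libraries left out. Rbm3, on the X chromosome (chrX:8138975-8145880), was at 55.1 and 61.6 CPM and rose to 257 and 337 CPM (2.35 ± 0.41, adjusted p = 0.015), with adjusted p = 0.12 or 0.072 when E4.5 replicate 1 or 2 was dropped. Cirbp was at 6.5 and 10.4 CPM in OVX and at 5.18 and 5.4 CPM in depleted KSOM. Starvation was higher than OVX (3.37 ± 0.51, adjusted p = 0.028) and higher than depleted KSOM (4.04 ± 0.52, adjusted p = 0.02). The first call was lost without OVX replicate 1 (0.12), and the second without depleted KSOM replicate 1 (0.086) or 2 (0.07). Rbm3 did not pass against OVX (adjusted p = 0.2) or depleted KSOM (0.1). Hsf2, a heat shock transcription factor, was at 74 and 47.2 CPM in starvation and at 3.15 and 3.95 CPM in depleted KSOM (4.09 ± 0.59, adjusted p = 0.026). That call was lost when either depleted KSOM library was left out. In OVX Hsf2 was at 12.5 and 17.4 CPM, and the difference from starvation did not pass the test (adjusted p = 0.12).

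**Figure D5:**
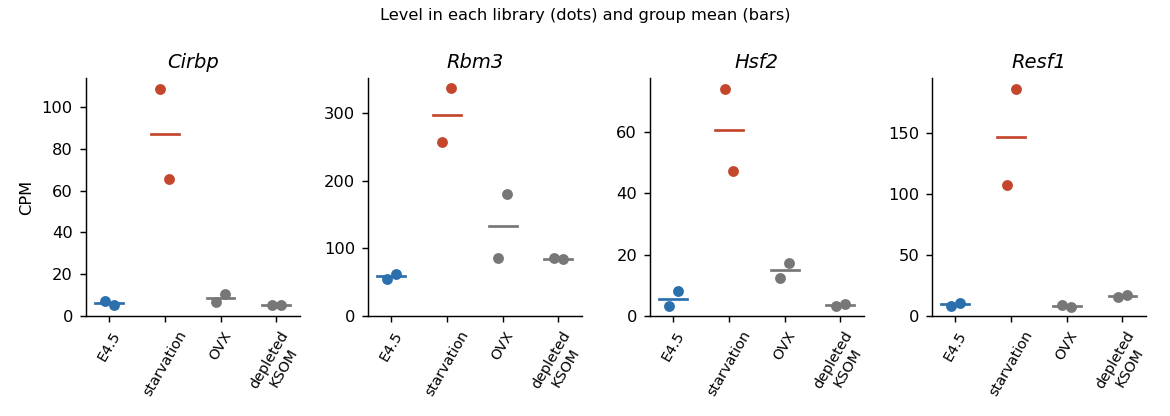
Level in CPM of Cirbp, Rbm3, Hsf2 and Resf1 in each library (dots) of E4.5, starvation, OVX and depleted KSOM, with the group mean as a bar. Both starvation libraries lie above all others in each panel, at 109 and 65.8 CPM for Cirbp, though Rbm3 and Hsf2 did not pass the test against OVX.

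The direct tests against the other day 5.5 groups called few genes. Against OVX 49 genes were called (0.225%), 17 higher and 32 lower in starvation, while 22 of 28 calls were higher with library totals as scaling. Neutrophil transcripts differed as well, with S100a8 at 355 and 83 CPM in OVX and at 0 and 1.31 CPM in starvation, and 31 genes were called when OVX replicate 1 was left out, 660 when OVX replicate 2 was. Against depleted KSOM 50 were called (0.229%), 36 higher and 14 lower, and the count became 15 or 18 when depleted KSOM replicate 1 or 2 was left out and 56 or 482 when starvation replicate 1 or 2 was. OVX and depleted KSOM also differ from starvation in sex-linked RNA. Eif2s3y was at 29.6 and 4.55 CPM in OVX and at 46.1 and 47.8 CPM in depleted KSOM, where Xist was at 3.04 and 1.51 CPM. The part of this in the calls was not tested. In each comparison 3 of the called genes were X-linked, where 3.6% of all tested genes are. Itgav was lower in starvation, at 1.83 and 2.87 CPM, than in OVX, at 15 and 22.3 CPM (−2.99 ± 0.44, adjusted p = 0.027), and than in depleted KSOM, at 34.5 and 28.1 CPM (−3.73 ± 0.46, adjusted p = 0.02), and both calls held with any library left out. Fbxo27, which marks glycoproteins for degradation, stood at 0.156 and 0.0459 CPM in starvation, 11.6 and 37.4 CPM in OVX and 18 and 13.5 CPM in depleted KSOM, and was likewise called in both (adjusted p = 0.02 and 0.023). Ldha, which makes lactate from pyruvate, was at 12.3 and 23.8 CPM in starvation and at 120 and 184 CPM in OVX (−3.07 ± 0.45, adjusted p = 0.027), and was called with any of these libraries left out. Plac1, a placental gene on the X chromosome, was at 144 and 87 CPM in starvation and at 653 and 664 CPM in OVX (−2.51 ± 0.37, adjusted p = 0.027).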

How the data were processed

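RNA of whole blastocysts was made into libraries with an ultra-low-input cDNA kit without molecular identifiers, so amplified copies cannot be told from separate molecules. Per the submitters' processing notes, cutadapt 1.9, HISAT2 2.0.4 and StringTie 1.3.4d were used with the GRCm38 build. The counting tool and annotation are not given in the sources used here. The authors deposited an estimated count per gene, in whole numbers, and FPKM values. All per-sample columns matched a labelled sample.

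Counts were tested with edgeR 4.0.16 (filterByExpr, TMM scaling, quasi-likelihood test) in a single model of the 13 libraries that gives every group its own mean (7 residual degrees of freedom), and p-values were Benjamini-Hochberg adjusted over all tested genes at 0.05. Errors are standard errors derived from fold change and F statistic. Where leaving out a library left a group with 1 sample, that sample was assumed to vary like the other groups. The script was tested on simulated data. Whether replicates came from different mothers is not in the labels, so p-values reflect only how these samples varied, which may be technical. The label of starvation replicate 2 carries the number 3 in its library name.

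Genes were named by fold change (mean of at least 16 CPM, groups that do not overlap, no predicted model), by adjusted p, by level among calls stable to leaving out a library, by list (up to 6 called members and the 2 most abundant others) and from 23 genes of prior interest. Members and lists were chosen with earlier results of these data known. The 55 lists and 11 marker lists held 1914 symbols, 1901 of which matched, with 1868 genes tested. A floor of 3 counts per library stood in for groups at 0. Alternatives were DESeq2 1.42.0, limma 3.58.1 on log2 of FPKM plus 1 or 0.1, other scalings and filters, counts divided by 4, a transcript length offset, the replicate block and leaving out each library. R 4.3.3, Python 3.11.15 and matplotlib 3.10.9 were used. The results of a gene among those called are not reported here.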

Additional observations from a re-analysis of the deposited data

How the results depend on the processing

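Against E4.5 the main test called 483 genes, and median-of-ratios scaling, counts divided by 4 and the transcript length offset stayed within 1.5 times of that. Other settings moved it to 230 with library totals, 2256 with DESeq2, 1799 and 1335 with limma on log2 FPKM plus 1 and plus 0.1, 1473 with no low-count filter, 978 with a minimum mean CPM of 5 and 0 with only the compared groups in the fit. Leaving out 1 library gave 55 to 1105. Against OVX 49 genes were called, and the other counts were 28 with library totals, 1631 with DESeq2, 211 and 152 with limma, 1091 with no filter, 272 with the minimum of 5 CPM, 0 with only the compared groups, 103 with counts divided by 4 and 21 with the length offset. Leaving out 1 library gave 31 to 660. Against depleted KSOM 50 genes were called, and the other counts were 28 with library totals, 1224 with DESeq2, 188 and 164 with limma, 827 with no filter, 107 with the minimum of 5 CPM and 0 with only the compared groups. Leaving out 1 library gave 15 to 482. The cause of these moves was not tested.

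Replicate numbers are given in the labels without a statement of what same-numbered libraries share. Deviations of same-numbered E4.5 and starvation libraries from their group means correlated at 0.0398. In groups of 2 both replicates give the same value, so it cannot decide whether the numbers mark a shared batch. With the replicate block 311 genes were called against E4.5, 0 against OVX and 18 against depleted KSOM. Of 311 single values, 256 belonged to named genes and 55 were list medians, to which no threshold applied. Only named genes called in the main fit had a call to lose. With only the compared groups in the fit, which called 0 genes, 126 of them lost it. Many of these calls were also lost when either E4.5 library was left out. No named gene reversed direction past the threshold in any setting run. Groups of 2 with this spread limit what can be called. The called higher genes had a median exon length of 4168 bases, the called lower genes 2256 and all tested genes 3107, and with the length offset 461 of 548 calls were higher.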
